A study of Arabidopsis thaliana with 24 samples.

Results

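Most proteins of the cytosolic ribosome of plants are encoded by several closely similar genes, the paralogues. Ribosomal protein mRNAs are abundant in dividing tissue, where new ribosomes are assembled in the nucleolus from ribosomal RNA and imported proteins. RPL proteins go into the large subunit and RPS proteins into the small one, and mutants in single paralogues of Arabidopsis are known for pointed leaves, altered polarity or arrested embryos. The genes described here are 56 listed loci for cytosolic ribosomal proteins, out of 33341 loci in the count files. They comprise 41 large subunit genes for 16 proteins and 15 small subunit genes for 9 proteins. Of the 25 proteins, 20 were represented by 2 or more listed genes and 5 by 1. The genes were listed by locus without a cut on any measured value, but earlier results of these data were known when the list was made. They were assigned to proteins by the standard Arabidopsis nomenclature. A RefSeq symbol existed for 28 of them, and the other 28 are given by locus.

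The study examined RH27, a DEAD-box RNA helicase, in Arabidopsis thaliana. Shoot apices and root tips were taken from 5-day-old seedlings of the Col-0 wild type and of rh27-2, the mutant line of RH27, grown on sugar-containing plates under long days. Each of the 4 groups of mRNA libraries (wild-type shoot, rh27-2 shoot, wild-type root and rh27-2 root) held 3 libraries, and the small RNA libraries of the series were not used here. Whether the replicates came from separate cultures is not stated in the labels, and the p-values cover the spread between these samples only. The 12 libraries held 15603992 to 20380109 counts on 21650 to 22788 detected loci. RH27 (AT5G65900) was present in all of them. It fell in rh27-2 root tips, from 26.9, 25.8 and 23.0 to 13.4, 15.7 and 14.4 CPM (counts scaled by library size, with TMM factors within the organ), a log2 fold change of -0.80 (SE 0.094, adjusted p = 8.47e-06, edgeR). In shoots RH27 held 32.8, 26.0 and 30.5 CPM in the wild type and 24.1, 24.8 and 22.3 CPM in the mutant, with no overlap but an adjusted p of 0.0712 in edgeR (log2 -0.33, SE 0.12). Of the 6 root tip markers, PLT1, PLT2 and SMB lay between 0 and 0.15 CPM in every shoot library and between 12.1 and 25.7 CPM in every root library, and SHR was also higher in wild-type roots (log2 1.13). SCR did not pass the test between the wild-type organs (log2 0.11, adjusted p = 0.307, edgeR). WOX5 went against its label, with 5.19, 6.92 and 1.57 CPM in wild-type shoots and 1.18, 0.53 and 1.22 CPM in wild-type roots (log2 -2.33, adjusted p = 0.0048). STM of the shoot meristem lay between 9.39 and 64.9 CPM in shoot libraries and at no more than 0.38 CPM in root libraries. On a scale common to the 12 libraries, KNAT1 held 20.1 to 35.1 CPM in wild-type shoots. It was also present in roots, at 2.59 to 4.05 CPM in wild type and 11.2 to 15.0 CPM in rh27-2. On that scale CLV3 was at or below 0.61 CPM in every library. WUS was at most 0.18 CPM in wild-type shoots, 0.55 to 1.33 CPM in rh27-2 shoots and at most 0.39 CPM in roots.

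In root tips of rh27-2, ribosomal protein mRNAs rose almost throughout. Of the 55 listed genes that passed the filter on low counts, 48 rose and 1 fell at an adjusted p of 0.05 (quasi-likelihood test of edgeR, adjusted over all genes tested by Benjamini and Hochberg), which is 87.3% higher. Over all 19443 genes tested in root tips, 31.3% were called higher and 30.9% lower. The rises were small: the median log2 fold change was 0.30, against 0.01 for all genes, and the largest was 0.79. In shoot apices none of the 55 rose and 7 fell (12.7%), where 21.1% of the 18972 genes tested were called higher and 19.8% lower. At an unadjusted p under 0.05 edgeR still gave 0 rises there and 12 falls, and DESeq2's Wald test gave 0 and 10 at an adjusted 0.05. The shoot median was -0.11 against -0.02 for all genes, and the share of falls was not above the background. With scaling to total counts, 50 genes rose and 1 fell in roots, beside 37.5% and 24.9% of all genes, and 0 rose and 13 fell in shoots, beside 18.5% and 24.5%. By overlap alone, every rh27-2 shoot value was below every wild-type value in 21 genes and the reverse held in 0, against 27.9% and 27.1% of all genes. The same count in root tips was 50 genes higher and 1 lower, against 34.3% and 33.8%. In bulk samples of this kind, a different number of cells of a type and a different amount of RNA per cell cannot be told apart.

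**Figure D1:**
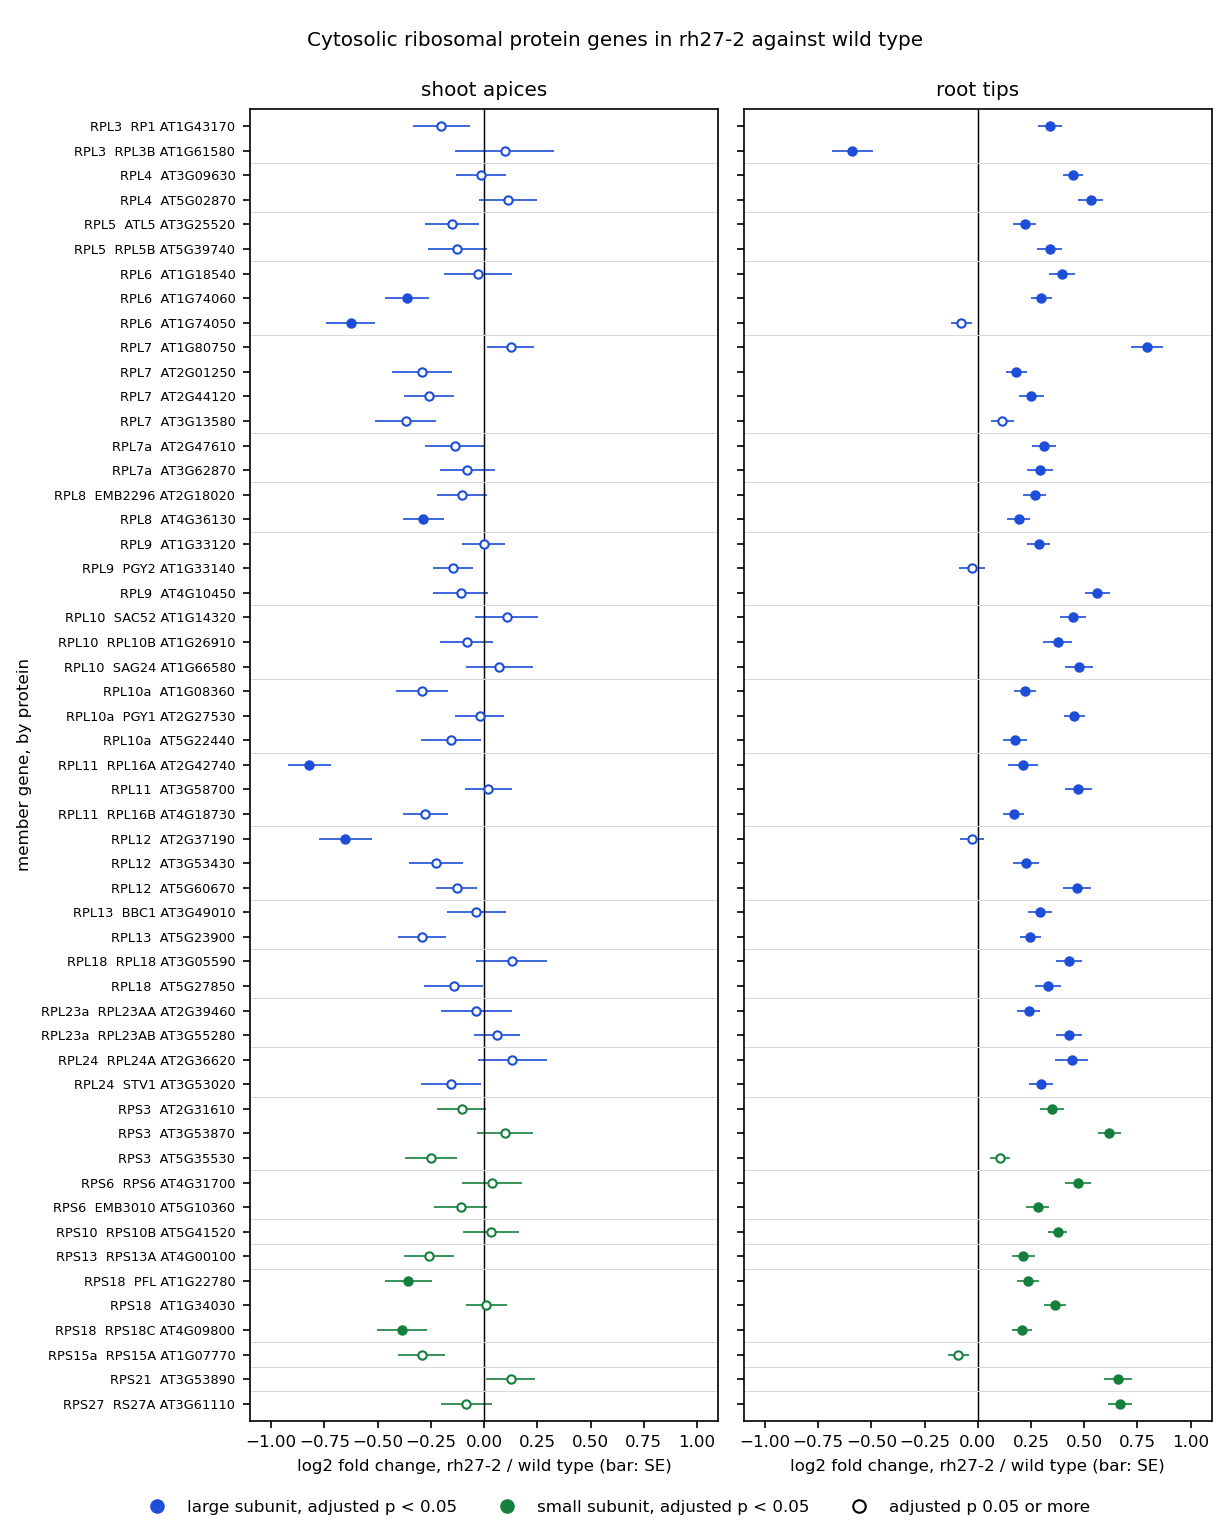
Log2 fold change of rh27-2 against wild type with its SE for 53 of the 55 tested ribosomal protein genes, ordered by protein, in shoot apices (left) and root tips (right); filled points passed an adjusted p of 0.05 in edgeR. In root tips 46 filled points lie to the right of 0 and RPL3B alone lies filled to the left, whereas in shoot apices the 7 filled points all lie to the left.

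Measured as a share of all counts, the 56 loci took 1.69%, 1.66% and 1.51% of the 3 wild-type shoot libraries and 1.29%, 1.47% and 1.46% of the rh27-2 shoot libraries. They took 1.71%, 1.74% and 1.54% of the wild-type root libraries and 2.16%, 2.19% and 2.30% of the rh27-2 root libraries. The groups did not overlap in either organ, with the mutant lower in shoots and higher in roots. The mean share in shoots was 1.62% ± 0.0964 (SD, n = 3) in wild type and 1.41% ± 0.098 in rh27-2, a ratio of 0.867. In roots it went from 1.67% ± 0.107 to 2.22% ± 0.0727, a ratio of 1.33. An exact two-sided permutation test gave p = 0.1 in each organ, the smallest value that 3 against 3 libraries allow.

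Large and small subunit genes gave similar counts and medians. In root tips 35 of 40 tested large subunit genes rose and 1 fell, with a median log2 fold change of 0.29, and 13 of 15 small subunit genes rose and 0 fell (also 0 at an unadjusted p under 0.05 in edgeR), with a median of 0.35. In shoot apices 5 of 40 and 2 of 15 fell, with medians of -0.13 and -0.11. These falls are 12.5% and 13.3%, both below the 19.8% of all genes called lower in shoots. The ratio of large to small subunit counts was 3.03 ± 0.0332 in wild-type and 3.03 ± 0.0105 in rh27-2 root tips (n = 3, exact permutation p = 0.8). In shoot apices it was 2.84 ± 0.118 and 2.87 ± 0.0226 (n = 3, exact permutation p = 0.7). Both pairs of groups overlapped, so no difference between the subunits was detectable with these libraries.

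**Figure D2:**
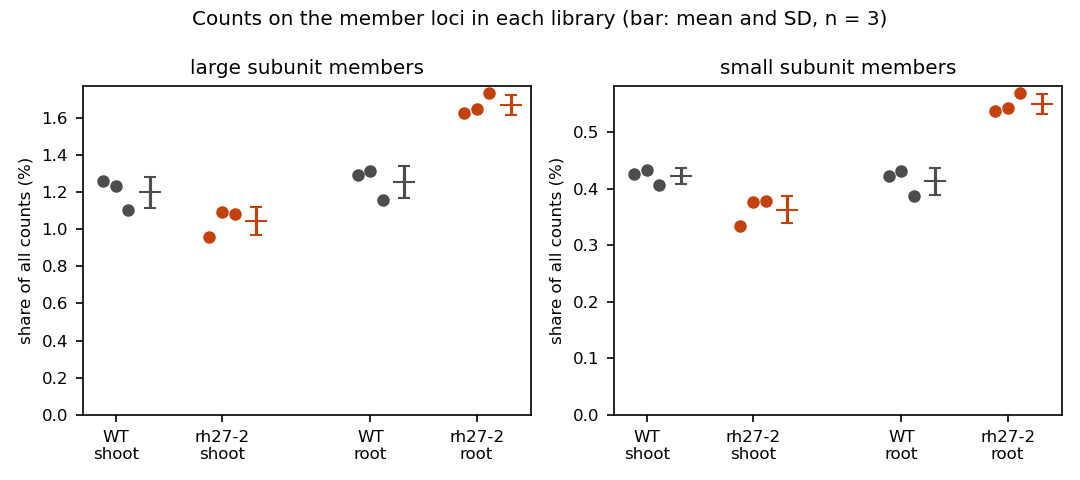
Share of all counts in percent on the large subunit genes (left) and small subunit genes (right) in each of the 12 libraries, with the mean and SD of 3 libraries. In both panels the rh27-2 points lie below the wild-type points in shoot apices and above them in root tips.

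The difference between organs was also tested itself. For 36 of 55 genes the change in rh27-2 was more positive in root tips than in shoot apices (interaction term of an edgeR fit over 12 libraries, adjusted p of 0.05), and for 0 it was more negative. RPL3B was the 1 gene on the negative side at an unadjusted p under 0.05 in edgeR, and 1 gene was called there by DESeq2's Wald test. Among all 20798 genes tested there, 21.4% were more positive and 22.6% more negative. The median difference was 0.40 on the log2 scale for both the large and the small subunit genes, against 0.06 for all genes. Without wild-type root replicate 3 the count of 36 went to 21, and without rh27-2 root replicate 1 to 23. It was 24 with DESeq2's size factors.

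RPL3 lies next to the peptidyl transferase centre and is encoded by RP1 (also RPL3A, AT1G43170) and RPL3B (AT1G61580). In root tips RP1 held 1115, 1106 and 1015 CPM in wild type and 1345, 1324 and 1424 CPM in rh27-2. RPL3B held 41.3, 44.2 and 35.6 CPM in wild type and 27.8, 23.5 and 29.1 CPM in rh27-2. The groups of both genes were apart, in opposite directions: RP1 rose (log2 0.34, SE 0.0543, adjusted p = 0.000131) and RPL3B fell (log2 -0.59, SE 0.0971, adjusted p = 0.00021). No other pair of listed paralogues was called in opposite directions in the same organ. In shoot apices the RPL3B values were 48.2, 55.6 and 31.5 CPM in wild type and 38.4, 52.0 and 54.1 CPM in rh27-2, and the groups overlapped. The share of RPL3B in the counts of the 2 genes went from 3.57%, 3.84% and 3.39% to 2.02%, 1.75% and 2.00% in root tips, with no overlap. In shoot apices it was 4.41%, 4.84% and 2.97% in wild type and 4.35%, 5.20% and 5.33% in rh27-2.

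**Figure D3:**
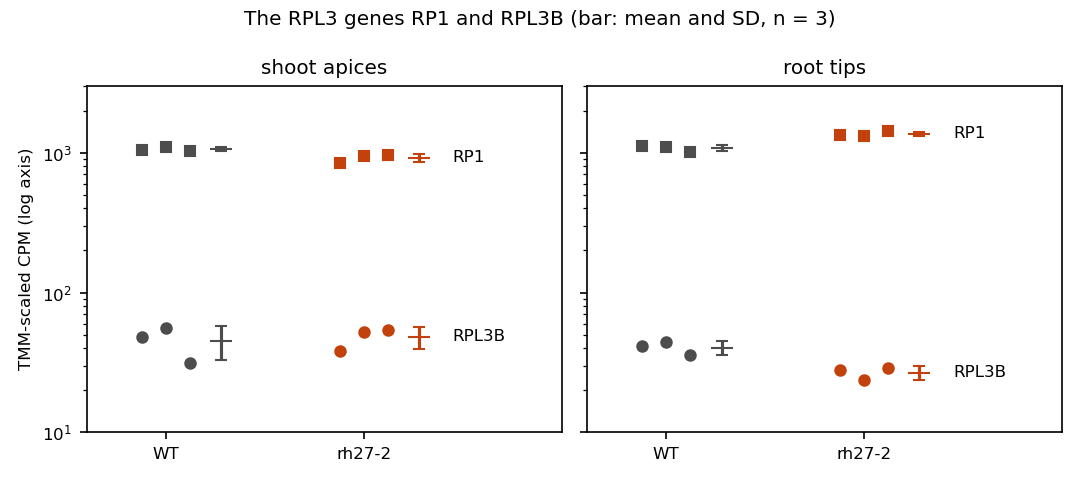
TMM-scaled CPM on a log axis for the RPL3 genes RP1 (squares) and RPL3B (circles) in each library, with the mean and SD of 3 libraries. In root tips the rh27-2 points of RP1 lie above and those of RPL3B below the wild-type points, and in shoot apices the RPL3B points overlap.

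RPL11 and RPL5 together bind the 5S ribosomal RNA of the large subunit. The RPL11 gene AT2G42740, named RPL16A in RefSeq, held 31.5, 34.4 and 31.7 CPM in wild-type shoot apices and 18.3, 18.5 and 18.3 CPM in rh27-2. This was the largest shoot fall among the listed genes (log2 -0.82, SE 0.101, adjusted p = 0.00163), and the replicates within each group lay close together. In root tips the same gene rose a little, from 26.8, 25.1 and 25.4 to 28.9, 30.9 and 29.9 CPM (log2 0.21, adjusted p = 0.0188), a call that DESeq2's Wald test did not make (adjusted p = 0.0699). Its difference between organs was the strongest of all listed genes by adjusted p, at 0.98 on the log2 scale (adjusted p = 4.67e-05). The other listed RPL11 genes behaved unlike it in shoots, with log2 changes of -0.28 for RPL16B (adjusted p = 0.0705) and 0.02 for AT3G58700 (adjusted p = 0.9). AT5G45775, an RPL11 gene outside the list, held a mean of 117.7 CPM in wild-type shoots. Its log2 change was -0.25 in shoots (adjusted p = 0.104, edgeR) and 0.49 in roots. Within the counts of the listed RPL11 genes, the share of RPL16A went from 10.7%, 11.3% and 10.9% to 7.97%, 7.10% and 7.52% in shoots. In roots the groups of this share overlapped. Both RPL5 genes rose in root tips, ATL5 by 0.22 and RPL5B by 0.34 on the log2 scale, and neither was called in shoots.

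RPL12 forms the base of the stalk that receives translation factors. Its gene AT2G37190 held 226.5, 261.6 and 278.0 CPM in wild-type shoot apices and 151.7, 168.4 and 167.7 CPM in rh27-2 (log2 -0.65, SE 0.124, adjusted p = 0.00712). All mutant values were below all wild-type values. In root tips the values of 250.0, 256.3 and 232.4 CPM and of 242.9, 227.6 and 255.1 CPM overlapped. The paralogues AT3G53430 and AT5G60670 rose there by 0.23 and 0.47 on the log2 scale. AT2G37190 lost share within RPL12 in both organs: from 44.0%, 49.5% and 54.5% to 39.5%, 43.0% and 42.2% in shoots, and from 45.3%, 45.9% and 47.0% to 40.4%, 39.9% and 41.4% in roots. Neither organ showed an overlap of the groups. The wild-type shoot values of this share spread over more than the difference between the group means, so the size of the shoot loss is uncertain.

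RPL6, also of the large subunit, had a pair of adjacent genes among its members. AT1G74050 and AT1G74060 are immediate neighbours on chromosome 1, with 0 annotated genes between them. AT1G74050 held 280.0, 320.0 and 324.5 CPM in wild-type shoots and 202.1, 202.0 and 194.9 CPM in rh27-2 (log2 -0.63, SE 0.115, adjusted p = 0.00627). AT1G74060 held 224.5, 233.5 and 239.0 CPM against 173.5, 185.8 and 182.2 CPM (log2 -0.36, SE 0.103, adjusted p = 0.0276). Both neighbours were lower in every mutant shoot library. In root tips they parted: AT1G74060 rose from 225.4, 234.9 and 212.8 to 268.8, 273.6 and 285.6 CPM, and AT1G74050 overlapped at 289.4, 290.4 and 269.8 against 272.8, 258.5 and 273.8 CPM (log2 -0.08, adjusted p = 0.191). The third gene, AT1G18540, gained share in both organs, from 46.6%, 42.4% and 35.7% to 48.6%, 51.0% and 50.0% in shoots and from 48.1%, 48.4% and 46.6% to 52.6%, 53.0% and 53.1% in roots. The wild-type shoot values of this share spread over more than the difference between the group means, so its size there is uncertain.

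RPL9 showed the largest shift of share in root tips. AT1G33120 and PGY2 (AT1G33140, of the PIGGYBACK genes known from leaf polarity) are also immediate neighbours, and AT4G10450 lies on another chromosome. AT4G10450 rose from 68.5, 62.8 and 62.7 to 90.0, 99.0 and 97.6 CPM (log2 0.56, SE 0.0594, adjusted p = 3.46e-06). PGY2 did not pass the test, with 67.1, 72.8 and 64.1 CPM in wild type and 66.2, 65.3 and 68.6 CPM in rh27-2. The share of AT4G10450 in RPL9 went from 32.7%, 29.5% and 31.4% to 37.1%, 38.9% and 37.2%, and that of PGY2 from 32.0%, 34.2% and 32.1% to 27.3%, 25.6% and 26.2%. Each of these shifts kept the groups apart. In shoots no RPL9 gene was called. RPL10a, the protein of the L1 stalk, has PGY1 (AT2G27530) as its most strongly raised gene, from 354.3, 360.0 and 331.0 to 469.2, 469.4 and 493.2 CPM in root tips (log2 0.45, SE 0.0502, adjusted p = 5.2e-06). Its share of the RPL10a counts went from 43.2%, 43.6% and 44.4% to 48.2%, 47.3% and 48.8% in roots and from 51.1%, 49.6% and 53.0% to 55.5%, 55.3% and 54.3% in shoots, without overlap in either organ.

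**Figure D4:**
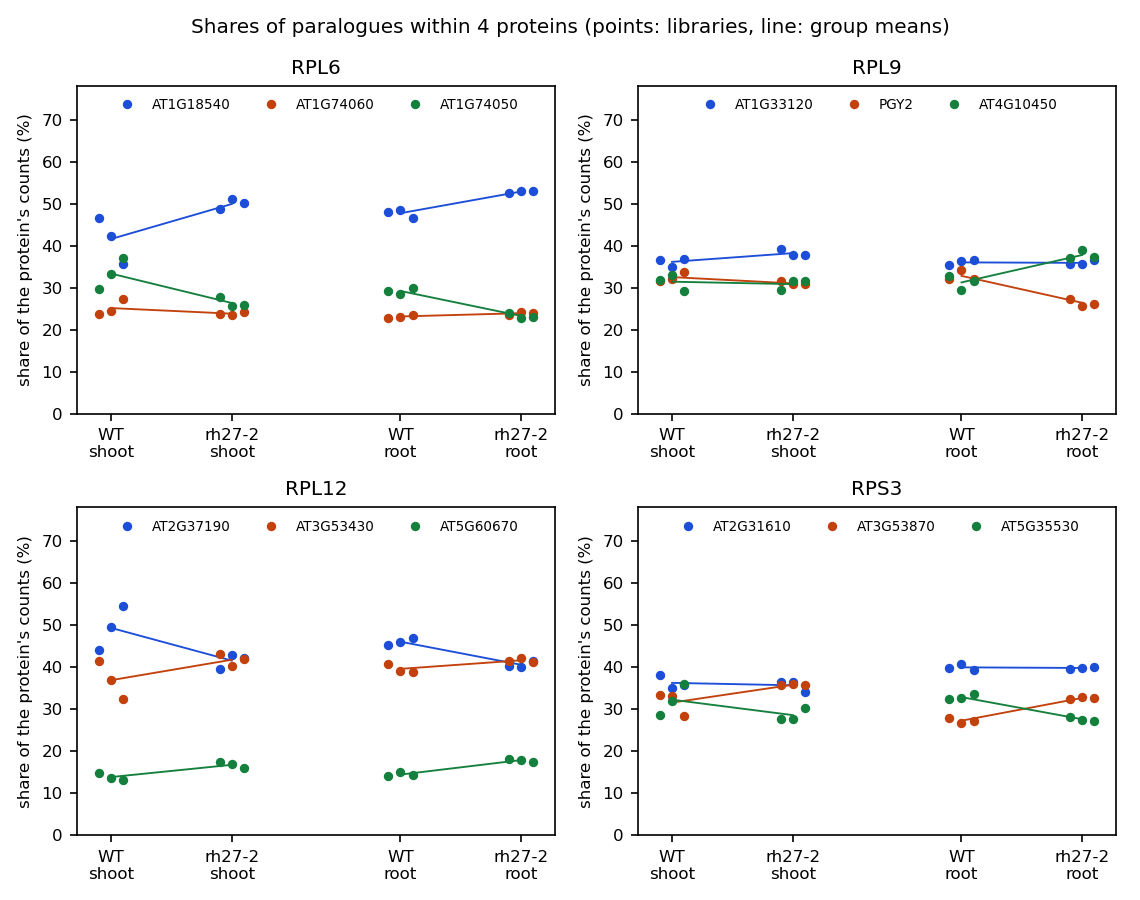
Share in percent of each gene in the summed counts of its protein for RPL6, RPL9, RPL12 and RPS3; points are the 12 libraries and lines join the group means of wild type and rh27-2. AT1G74050, AT2G37190 and AT5G35530 lose share in rh27-2 root tips, and AT4G10450 and AT3G53870 gain it, with no overlap of the points.

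Among the remaining large subunit genes the largest rise in root tips was that of AT1G80750, listed with RPL7. It went from 88.7, 95.3 and 81.8 to 138.7, 154.4 and 167.7 CPM (log2 0.79, SE 0.0758, adjusted p = 4.17e-06). Its 3 partners had log2 changes of 0.12 to 0.25, and AT3G13580 among them did not pass the test (adjusted p = 0.0793). In shoots AT1G80750 overlapped between the groups. RPL4, whose loops line the exit tunnel, rose in both genes, AT3G09630 by 0.45 and AT5G02870 by 0.53 on the log2 scale. All 3 genes of RPL10, which joins the subunit late in its maturation, rose by 0.38 to 0.47, with SAC52 (a suppressor of acaulis gene) at 0.45. For RPL8, AT4G36130 fell in shoots from 183.9, 185.5 and 180.3 to 151.2, 151.6 and 147.8 CPM (log2 -0.29, adjusted p = 0.0487) and rose in roots from 216.4, 224.5 and 208.3 to 247.1, 233.7 and 260.5 CPM (log2 0.19, adjusted p = 0.00691). Its shoot call is at the edge of the threshold and is lost with the replicate number as a block (adjusted p = 0.0687). The RPL8 gene AT3G51190 was all but silent, with 0 to 3 counts in each library, and was not tested. Genes of RPL7a, RPL13, RPL18, RPL23a and RPL24 all rose in root tips by 0.24 to 0.44, and none was called in shoots. The shares of their genes in shoots overlapped between the genotypes for RPL7a, RPL13 and RPL23a and lay apart for RPL18 and RPL24. RPL18 (AT3G05590) went from 57.2%, 57.1% and 54.1% of the counts of its protein to 60.9%, 62.2% and 59.6%, at the expense of AT5G27850. RPL24A went from 44.3%, 42.8% and 41.7% to 47.6%, 47.9% and 48.5%, at the expense of STV1, the SHORT VALVE gene of carpel development.

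On the small subunit, RPS27 and RPS21 are each represented by 1 listed gene, and both stood high in root tips. RS27A (AT3G61110) rose from 126.1, 131.3 and 113.9 to 197.0, 190.2 and 202.4 CPM (log2 0.67, SE 0.0572, adjusted p = 5.21e-07). AT3G53890 of RPS21 rose from 99.1, 107.7 and 94.6 to 158.1, 147.6 and 170.1 CPM (log2 0.66, SE 0.0638, adjusted p = 1.55e-06). Both overlapped between the genotypes in shoots. RPS3 sits at the entry of the mRNA channel, and its gene AT3G53870 rose in root tips from 240.0, 234.7 and 213.9 to 346.3, 345.0 and 365.0 CPM (log2 0.62, SE 0.054, adjusted p = 6.16e-07). Its paralogue AT5G35530 held 279.2, 286.2 and 264.7 CPM in wild type and 299.7, 289.5 and 302.6 CPM in rh27-2 and did not pass the test (log2 0.10, adjusted p = 0.0796). Within RPS3, AT3G53870 went from 27.9%, 26.7% and 27.1% to 32.4%, 32.8% and 32.7% of the counts in root tips. AT5G35530 went from 32.4%, 32.6% and 33.5% to 28.1%, 27.5% and 27.1%. The groups did not overlap for either share.

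The 2 small subunit falls in shoot apices were both of RPS18, a protein of the subunit head. PFL (POINTED FIRST LEAF, AT1G22780) held 208.3, 220.3 and 193.3 CPM in wild type and 151.0, 167.7 and 167.3 CPM in rh27-2 (log2 -0.36, SE 0.111, adjusted p = 0.0392). RPS18C held 282.6, 326.9 and 319.0 CPM against 223.1, 241.5 and 246.0 CPM (log2 -0.39, SE 0.118, adjusted p = 0.0363). Both mutant groups lay below the wild type, whereas AT1G34030, the third RPS18 gene, overlapped at 124.1, 119.5 and 118.4 against 126.3, 118.0 and 120.4 CPM. In root tips all 3 rose: PFL from 231.6, 244.8 and 220.7 to 263.9, 271.8 and 285.2 CPM, RPS18C from 288.5, 289.8 and 273.2 to 323.8, 325.4 and 333.2 CPM, and AT1G34030 by 0.36 on the log2 scale. PFL, RPS18C, RPL16A, AT1G74060 and AT4G36130 were the 5 listed genes called lower in shoots and higher in roots. The shoot falls of PFL, RPS18C, AT1G74060 and AT4G36130 lost their calls in fits without single shoot libraries. That of RPL16A kept its call in those fits, but DESeq2's Wald test did not call its root rise. RPS6, the target of the TOR-activated S6 kinase, rose in both genes in root tips, by 0.47 for RPS6 and 0.28 for EMB3010. RPS10B and RPS13A rose as well, by 0.37 and 0.21. RPS15A was the exception, with a root log2 change of -0.09 (adjusted p = 0.115).

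Summing the counts of the listed genes of each protein before the fit gave a view by protein. Paralogues outside the list are not in these sums, and for 5 proteins the sum is a single gene. In root tips the sums of 24 of 25 proteins rose and 0 fell. Those of RPL3 and RPL12 rose by 0.32 and 0.16 on the log2 scale despite a falling or flat gene in each. RPS15a was the one not called, and its sum is the gene RPS15A alone. The tested RPS15a genes outside the list, RPS15AD and AT5G59850, rose in root tips by 0.26 and 0.67 (adjusted p = 0.00084 and 2.33e-05, edgeR). In shoots RPS15AD fell (log2 -0.58, adjusted p = 0.00504, edgeR) and AT5G59850 was not called (log2 0.15, adjusted p = 0.339, edgeR). Among the sums of listed genes in shoot apices, that of RPL12 alone fell (log2 -0.41, SE 0.112, adjusted p = 0.0258).

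Paralogues of a protein differed from each other in their changes. The span between the highest and lowest log2 change of a protein's listed and tested genes had a median of 0.27 in shoots and 0.19 in roots. It was largest for RPL11 in shoots (0.84) and for RPL3 in roots (0.93). In 16 of the 20 proteins the gene with the lowest change in shoots also had the lowest change in roots, in 9 of 11 proteins with 2 tested genes and 7 of 9 with more. Orders unrelated between the organs would give a mean of 8.42 of 20. Across the 50 genes of these proteins, the deviation of a gene from the mean of its protein in shoots and in roots had a Pearson correlation of 0.52 and a Spearman correlation of 0.64. These are descriptions across genes: the organs share no library, but the genes of a protein with 2 members mirror each other, and near-identical paralogues may share reads.

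**Figure D5:**
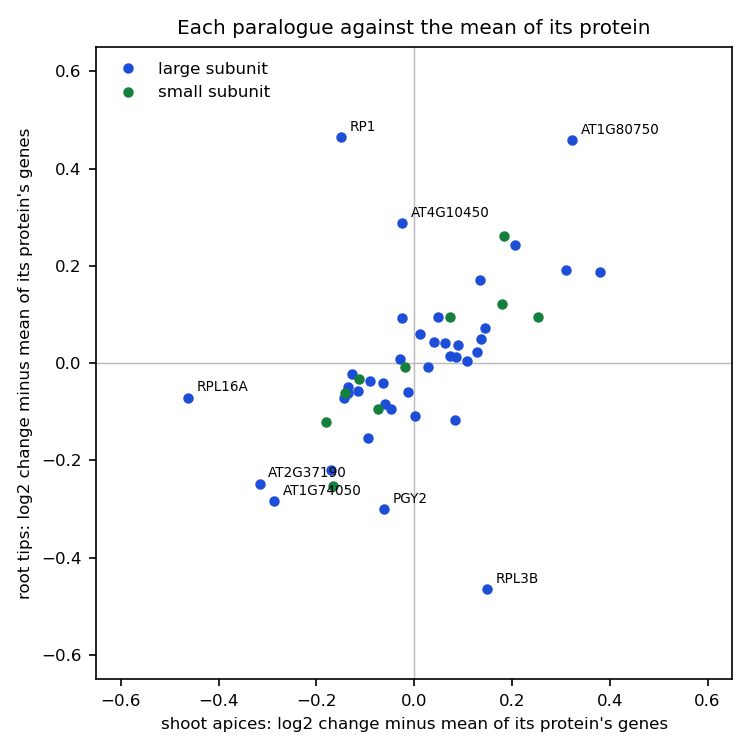
For 50 genes of 20 proteins, the log2 fold change in rh27-2 minus the mean of the protein's tested genes, in shoot apices (x axis) and root tips (y axis). Most points lie near a rising diagonal, and the RPL3 genes RP1 and RPL3B lie off it, with RPL3B low in roots only.

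In the wild type, the listed genes differed little between organs. On a scale common to the 12 libraries, 4 of 55 were higher and 7 lower in root tips than in shoot apices, where 37.1% and 39.2% of all genes were (edgeR, adjusted p of 0.05). The largest difference was that of AT5G22440, an RPL10a gene, with 212.8, 214.8 and 188.8 CPM in roots and 132.2, 117.8 and 90.5 CPM in shoots (log2 0.86, SE 0.12, adjusted p = 3.73e-05). RPL10B held 27.3, 26.0 and 24.7 CPM in roots and 19.9, 16.7 and 16.4 CPM in shoots (log2 0.56, adjusted p = 0.000232). Both genes had all root values above all shoot values. In the opposite direction RPL16A held 25.4, 23.7 and 24.1 CPM in roots and 33.2, 35.5 and 32.0 CPM in shoots (log2 -0.46, adjusted p = 0.000139). AT3G09630 and RPL23AB were the other genes higher in roots. AT1G74050, AT1G74060, AT5G23900, AT3G53870, RPS18C and RS27A were the others lower in roots, with log2 differences of -0.17 to -0.30.

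Other ribosome genes were read from lists set beside the 56. Of 166 further loci for cytosolic ribosomal proteins, 151 passed the filter in root tips, and of these 122 rose and 1 fell, with a median log2 change of 0.34. In shoot apices 5 of 150 rose and 22 fell, with a median of -0.13. These are 3.33% and 14.7%, both below the 21.1% and 19.8% of all genes tested in shoots. In root tips the 122 rises are 80.8% and the 1 fall 0.662%, against 31.3% and 30.9% of all genes tested there. Of 13 genes for assembly partners of the subunits, 11 rose (84.6%) and 0 fell in root tips, with a median of 0.52. They included eIF6A, whose protein keeps new large subunits from joining small ones, at 84.3, 78.8 and 77.4 CPM in wild type and 161.0, 168.3 and 173.3 CPM in rh27-2 (log2 1.06, adjusted p = 4.42e-09). Also among them was AT1G08410 (LSG1-2, a GTPase gene of late large subunit maturation), at 27.0, 29.0 and 25.3 against 49.0, 49.7 and 51.9 CPM (log2 0.89). In shoots 1 of the 13 rose, AT3G15460 (log2 0.63, adjusted p = 0.018), which rose by 1.40 in roots, and the groups of the eIF6A values were apart there too but with an adjusted p of 0.0542.

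Plastid ribosomal protein genes moved differently. Of 32 tested in shoot apices 31 fell and 0 rose, with a median log2 change of -1.22, and in root tips 19 of 31 fell, with a median of -0.35. Of all genes tested, 21.1% were called higher and 19.8% lower in shoots, and 31.3% and 30.9% in roots. RPL12-C, a plastid stalk gene, held 306.6, 231.2 and 222.5 CPM in wild-type shoots and 103.4, 76.4 and 61.0 CPM in rh27-2. The summed CPM of the 33 plastid genes was 7362 to 11258 in wild-type and 3171 to 5199 in rh27-2 shoots, and 457.6 to 490.6 and 355.6 to 382.7 in roots. The 4 shoot apex markers summed to 29.6 to 51.5 CPM in wild-type and 147.5 to 194.1 CPM in rh27-2 shoots, where STM and KNAT1 rose, and to 2.78 to 4.48 and 12.6 to 16.3 CPM in roots. The 6 root tip markers summed to 160.9 to 189.4 CPM in wild-type and 192.5 to 212.1 CPM in rh27-2 roots, with 3 of 6 called higher, and to 86.6 to 99.4 and 70.4 to 79.8 CPM in shoots. SCR and SHR make up most of these sums. WOX5 changed most among the 6, from 1.18, 0.53 and 1.22 to 7.59, 8.15 and 7.11 CPM in roots (7.63-fold, adjusted p = 2.31e-07, edgeR) and from a mean of 4.56 ± 2.73 to 0.72 ± 0.70 CPM in shoots (SD, n = 3, adjusted p = 0.0389 in edgeR). SMB had a root log2 change of -0.32 (adjusted p = 0.0669). These lists moved with the genotype in both organs, and their part in the ribosomal protein results was not tested.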

How the data were processed

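Per the labels' protocols, RNA of shoot apices and root tips was extracted with a miRNeasy kit and sequenced. The authors deposited raw read counts per locus for each mRNA library, without a header. The submitters' processing notes name the tools Bowtie2, TopHat2, edgeR and HTSeq with no roles given, and the build TAIR10. The strand of counting and the handling of reads that match several loci are not given in the sources used here, so counts of near-identical paralogues and overlapping genes are uncertain.

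Counts were analysed with edgeR 4.0.16 in R 4.3.3, with filterByExpr (minimum count 10), TMM scaling, the robust quasi-likelihood test and p-values adjusted by Benjamini and Hochberg over all genes tested, at 0.05. Genotypes were compared within each organ, and organs in a fit of organ, genotype and their interaction over 12 libraries. CPM are scaled within an organ except where a common scale is named. The procedure was tested on simulated counts with few changed genes, drawn with the spread that edgeR had fitted. That setting does not cover changes as widespread as those in these data. Single values per library were compared with exact two-sided permutation tests. DESeq2 1.42.0 was an alternative.

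No transcript lengths were used, so shares of paralogues are shares of the raw counts of the listed genes. They follow length as well as level, and only their changes between groups are read. The plan had assumed values per length. Gene symbols came from a RefSeq table of TAIR10.1, which matched 33056 of 33341 loci. The listed genes, the other lists and the tests were chosen with earlier results of these data known. Values in every library are given for RH27, the 5 largest called rises and falls in each organ, genes called in opposite directions in the organs or against a paralogue, the 5 strongest differences between organs and the 5 proteins with the largest shifts of share per organ, and up to 3 genes of each other list were eligible by adjusted p. Paralogues given for comparison, RPL10B and AT5G22440 were added after their values were seen. The values of some genes that the rule selects are not reported here.

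Between replicates the counts varied beyond sampling noise (chi-square per degree of freedom of 3.88 to 56.5 over loci). Whether replicate numbers pair wild-type and rh27-2 libraries was checked by correlating deviations from the group means: the values for numbers 1, 2 and 3 were 0.46, 0.44 and 0.17 in shoot apices and 0.07, 0.01 and -0.04 in root tips. In shoot apices unlike numbers gave -0.48 to 0.29, and the highest, wild-type 2 with rh27-2 3, was above the value for number 3. A pairing in shoot apices is thus a pattern in the data that the labels do not state. The main fits and the permutation tests did not pair libraries. The replicate number entered as a block only in an alternative fit. The edgeR biological coefficient of variation was 0.202 in shoots and 0.0735 in roots.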

Additional observations from a re-analysis of the deposited data

Results flagged for a closer look

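The genotype effect differed between organs, by the interaction term of edgeR at an adjusted p of 0.05, for 36 of 55 listed genes, all with a more positive effect in root tips. Among the genes given with their library values, the difference in log2 fold change, root minus shoot, was 0.98 for RPL16A, 0.70 for RS27A, 0.61 for AT1G74060, 0.62 for AT4G10450 and 0.61 for AT1G80750. It was 0.57 for AT2G37190, 0.54 for PFL and 0.54 for RPS18C, and 0.49 for AT1G74050. For RP1 it was 0.49, for AT3G53890 0.48, for AT3G53870 0.47, for AT4G36130 0.42 and for PGY1 0.42. For RPL3B it was -0.74, the one negative value, with an adjusted p of 0.0542. The shoot libraries varied more than the root libraries (biological coefficient of variation 0.202 and 0.0735), and the interaction rests on a spread pooled over both.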

How the results depend on the processing

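No listed gene changed sign in a called value under any alternative run. The count of shoot falls was 7 in the main analysis, 13 with scaling to total counts and 12 with all 12 libraries in one fit. With the counts of the listed genes summed per protein it was 1 of 25. Without single libraries it ran from 3 to 9, at 3 without wild-type shoot replicate 2 or without rh27-2 shoot replicate 1, 2 or 3; the falls of RPL16A, AT2G37190 and AT1G74050 were called in each of these fits, and those of AT1G74060, AT4G36130, PFL and RPS18C were not. Scaling to total counts moved the median of all genes to -0.11 in shoots and 0.10 in roots, and with it the small subunit medians to -0.19 and 0.44 and the large subunit root median to 0.39. Relative to all genes the median of the listed genes lay at -0.08 to -0.09 in shoots and 0.28 in roots. Summed per protein, root tips gave 24 rises and 0 falls, the interaction 19 proteins, and the wild-type organ comparison 0 higher and 1 lower. Single-library fits gave 46 to 49 rises and 1 to 2 falls in root tips (2 without wild-type root replicate 3), 21 to 46 more positive and 0 to 1 more negative interactions, and 4 to 6 higher and 4 to 7 lower genes in the wild-type organ comparison (4 lower without wild-type shoot replicate 2 or wild-type root replicate 3). DESeq2's size factors and DESeq2's Wald test each gave 1 more negative interaction, against 0 in edgeR.

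With the replicate number as a block, 7 genes fell in shoots, of which 6 were in the main 7, 48 rose and 1 fell in roots, and 31 interactions were called. In all, 207 of 1471 values of single genes under the alternatives lost their call. Shares per length and the comparison without identical proteins were not run, since no transcript lengths or protein sequences were used. AT3G51190 had too few counts to be tested.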

Other observations

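The genes of the wider list with the largest changes were paralogues of low level. Of the 151 further cytosolic ribosomal protein genes tested in root tips, 16 had a wild-type root mean under 20 CPM. Of these 16, 9 rose by more than 1 on the log2 scale and 7 did not, a cut chosen after the values were seen. AT3G28500 and AT5G40040, with wild-type root means of 0.13 and 0.19 CPM, passed the filter on low counts only through rh27-2 and could be called only as rises, so the count is no support for a tie between level and change. The 135 genes at or above 20 CPM had log2 changes of at most 0.86, close to the highest value among the 56 genes (0.79). AT5G39850, a gene of RPS9, went from 8.91, 7.12 and 9.08 to 53.8, 48.3 and 59.0 CPM in root tips (log2 2.68, adjusted p = 5.96e-10, edgeR) and from 9.56, 12.01 and 18.2 to 37.7, 33.2 and 38.4 CPM in shoot apices (log2 1.46). The other RPS9 gene tested rose by 0.29 in roots. AT2G40010, of the stalk protein RPP0, went from 9.53, 9.03 and 7.80 to 47.4, 41.1 and 45.8 CPM in root tips (log2 2.34) and rose by 1.37 in shoots, while the 2 other RPP0 genes rose by 0.38 and 0.48 in roots.

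AT3G09680 of RPS23 also rose in both organs. It held 0.23, 0.40 and 0.65 CPM in wild-type shoots and 6.51, 6.71 and 4.50 CPM in rh27-2 (log2 3.77), and rose by 3.07 in roots. It passed the filter in shoots only through rh27-2, so its call there could only be a rise. AT5G40040 of the stalk protein RPP2 rose in roots, from 0.26, 0.20 and 0.13 to 8.64, 8.05 and 7.84 CPM. In shoots it held 0.35, 0.54 and 0.43 CPM in wild type and 0.19, 0.15 and 0.26 CPM in rh27-2, too low to be tested there. None of the 55 tested genes of the main list had a wild-type root mean under 20 CPM.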
